A study of Mus musculus with 10 samples.

Results

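Total RNA from the prefrontal cortex (PFC) of 10 mice was ranked by its RNA integrity number (RIN), and the 6 libraries labelled with a RIN of 9.5 or above were compared with the 4 libraries labelled 8.3 or below. No library lay between these values, so the comparison took in all 10 libraries of the study. The high RIN class held 3 *Zbtb16* KO mice (KO1, KO2 and KO4, with RIN 9.5, 9.7 and 9.7) and 3 WT mice (WT1, WT2 and WT5, with RIN 9.8, 9.7 and 9.5). The low RIN class held 2 KO mice (KO3 and KO5, with RIN 8.3 and 8.1) and 2 WT mice (WT3 and WT4, both with RIN 8.2). KO mice were homozygous for luxoid (lu), a nonsense point mutation in *Zbtb16*, on the B6.C3-Zbtb16 lu/J line, and WT mice carried no lu allele. All mice were 7 weeks old and described as male. The classes were set by the RIN labels alone, and genotype was kept as a covariate or a stratum in the tests reported here.

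RIN is read from the electrophoresis of total RNA and rests mainly on the ribosomal RNA bands, which smear as RNA is cut into shorter pieces. Messenger RNA makes up a small share of total RNA, and in a poly(A)-selected library a cut transcript is captured through its tail, so that sequence far from the 3′ end can be lost. Transcripts differ in how long they last in tissue and in how much of their sequence lies far from the tail. In bulk cortex, fewer cells of a type and less RNA per cell cannot be told apart. The labels give no date of dissection or extraction, so RIN class and any such batch cannot be told apart either.

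Libraries held 30220122 to 51231439 counts on 22000 protein-coding genes, of which 14620 were abundant enough to test and 4258 were at 0 in every library. KO5, of low RIN, was the deepest library with 51231439 counts, followed by WT2, of high RIN, with 47343536. Total counts averaged 35673310 ± 6089371 (SD, n = 6) at high RIN and 38903546 ± 8350562 (SD, n = 4) at low RIN, and no difference by class was detected (exact two-sided permutation of the class within genotype, P = 0.55, adjusted P = 0.71 over 9 library measures). Genes with at least 1 count numbered 16008 to 16237 at high RIN and 16082 to 16457 at low RIN (exact permutation P = 0.49, adjusted P = 0.71). KO3, labelled male, had 1 count in sum over 4 genes of the Y chromosome (*Uty*, *Kdm5d*, *Ddx3y* and *Eif2s3y*), against 4376 to 8182 in the other 9 libraries. KO5 stood apart in red blood cell transcripts, with an *Hbb-bs* level of 83.7 CPM (counts scaled to library size by TMM) against 16.7 to 37.1 CPM elsewhere. *Camk2a*, the kinase subunit that marks excitatory neurons of the forebrain, was at 3836 ± 272 CPM (SD, n = 6) at high RIN and 4014 ± 208 CPM (SD, n = 4) at low RIN. The mutated gene checked the genotype labels, since *Zbtb16* lay at 42.1 to 52.9 CPM in the 5 KO libraries and at 70.8 to 88.2 CPM in the 5 WT libraries.

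The first question was how many genes followed RNA integrity. With genotype in the model, 44 of the 14620 tested genes (0.301%) passed an adjusted P of 0.05 (edgeR's quasi-likelihood test, Benjamini-Hochberg), 28 of them (0.192%) higher and 16 (0.109%) lower at high RIN. The changes were small. Higher genes differed by 1.14-fold to 2.44-fold and lower genes by 1.17-fold to 1.85-fold, and 33 of the 44 changed by less than 1.5-fold. At an unadjusted P of 0.05 the test took in 1544 genes (10.6%), 778 higher (5.32%) and 766 lower (5.24%). CPM of the classes did not overlap for 359 tested genes (2.46%), among them 29 of the 44, namely 19 higher and 10 lower (1.19% and 1.27% of tested genes).

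**Figure D1:**
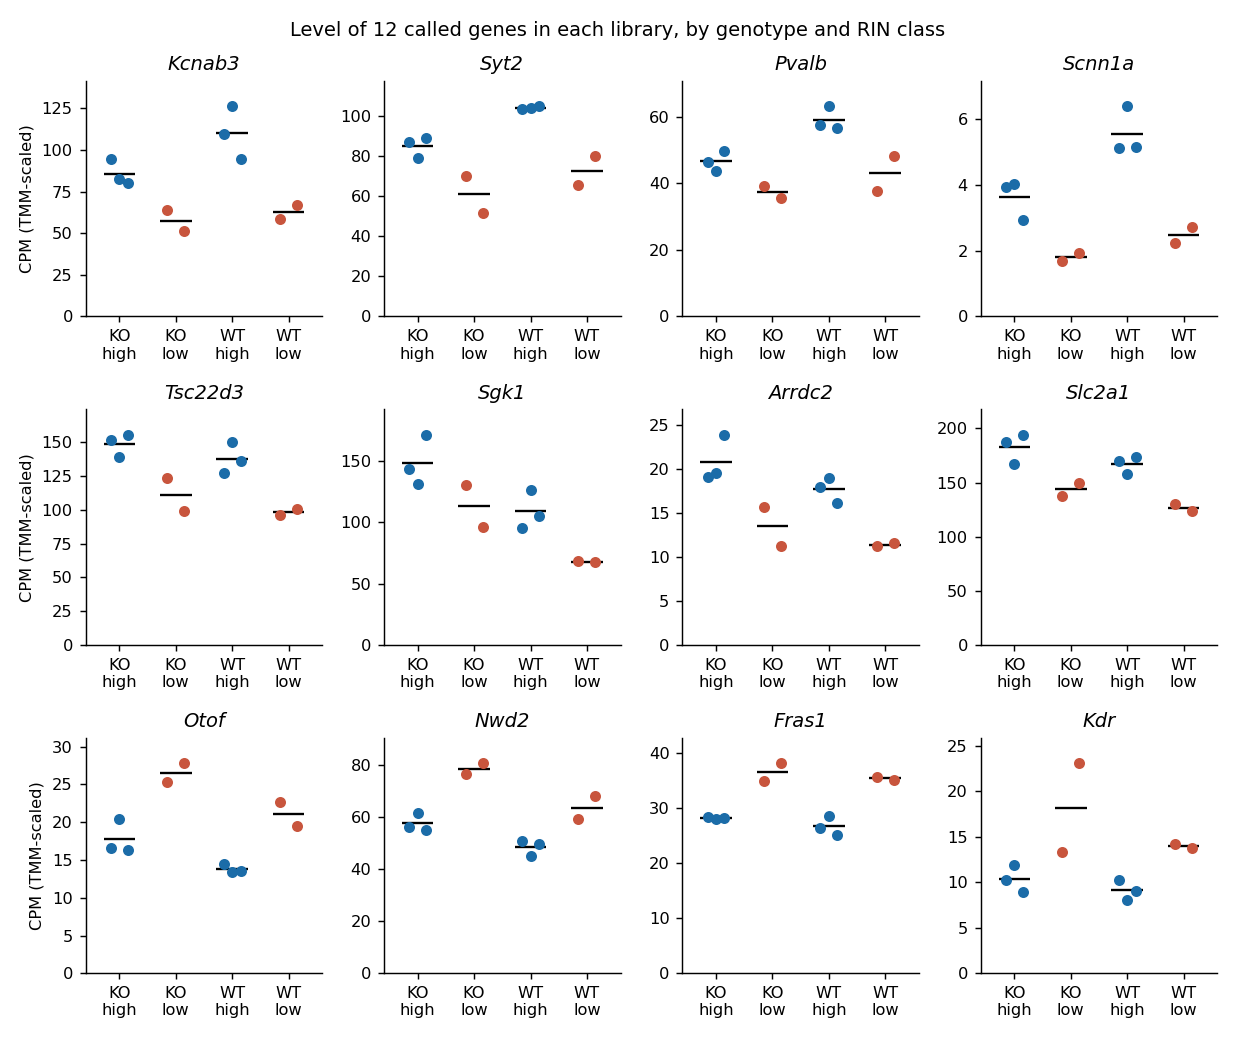
Level of 12 of the called genes in each library, in TMM-scaled CPM on linear axes that start at 0. Blue points are libraries of high RIN, red points libraries of low RIN, and black lines the mean of each genotype and class. In the upper rows the high RIN libraries sat above the low RIN libraries of the same genotype, with *Scnn1a* at 2.93 to 6.38 CPM against 1.70 to 2.73 CPM, and in the lowest row they sat below, with *Fras1* at 25.1 to 28.5 CPM against 34.9 to 38.1 CPM.

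Among the genes higher at high RIN were *Kcnab3*, *Syt2*, *Pvalb*, *Vamp1* and *Kcng4*, which are known from fast-spiking interneurons, the inhibitory neurons that fire long trains of brief action potentials. *Kcnab3*, an auxiliary subunit of voltage-gated potassium channels, was at 80.2, 94.5 and 126 CPM (lowest, median and highest) in the high RIN libraries, and at 63.9, 51.1, 58.4 and 67.0 CPM in KO3, KO5, WT3 and WT4. Every high RIN library thus lay above every low RIN library, and the log2 fold change was 0.69 ± 0.09 (SE; adjusted P = 0.00799). *Syt2*, the calcium sensor of fast transmitter release, was at 79.1, 96.4 and 105 CPM at high RIN and at 70.1, 51.9, 65.6 and 80.0 CPM in the low RIN libraries. Only WT4 reached the range of the high RIN class, and the log2 fold change was 0.50 ± 0.08 (SE; adjusted P = 0.0156). *Pvalb*, the calcium buffer parvalbumin, was at 43.8, 53.1 and 63.1 CPM at high RIN against 39.3, 35.6, 37.6 and 48.2 CPM, again with WT4 inside the upper range (log2 fold change 0.39 ± 0.07, SE; adjusted P = 0.0391). *Vamp1*, a vesicle fusion protein, rose by 0.31 on the log2 scale and *Kcng4*, a modulatory potassium channel subunit, by 0.64 (adjusted P = 0.0414 for each, edgeR).

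Other genes of the fast-spiking type had positive values without passing the test. In a list of 12 such genes, written after the calls had been seen and so no independent evidence, 4 passed the test (*Pvalb*, *Syt2*, *Kcnab3* and *Vamp1*), all 12 had a positive log2 fold change, and the median was 0.25. Over all tested genes 0.192% were called higher, 50.6% were positive and the median was 0.0014. The potassium channels *Kcnc1* and *Kcnc2* had log2 fold changes of 0.12 and 0.05. A list of 10 general interneuron markers had a median of 0.0057 with *Pvalb* as its 1 called member, and *Gad1*, which makes GABA, was at 368 ± 16.1 CPM (SD, n = 6) at high RIN and 336 ± 18.7 CPM (SD, n = 4) at low RIN (adjusted P = 0.181, edgeR).

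Further called genes are described singly. *Scnn1a*, a sodium channel subunit widely used to mark layer 4 neurons, lies at chr6:125320659-125344943 (GRCm38) and had the largest change among named genes. It was at 2.93, 4.57 and 6.38 CPM at high RIN and at 1.70, 1.93, 2.23 and 2.73 CPM in KO3, KO5, WT3 and WT4, without overlap. The log2 fold change was 1.08 ± 0.16 (SE; adjusted P = 0.0107, edgeR), 0.99 in KO mice and 1.17 in WT mice. *Rspo1*, a secreted enhancer of Wnt signalling, was at 9.20, 12.4 and 15.8 CPM at high RIN against 6.82, 4.09, 8.73 and 9.13 CPM, with WT4 just under the lowest high RIN library (log2 fold change 0.82 ± 0.13, SE; adjusted P = 0.0177). *Unc5d*, a netrin receptor, and *Whrn*, a scaffold protein of sensory hair bundles, rose by 0.31 and 0.30 on the log2 scale, each without overlap between classes (adjusted P = 0.0257 and 0.0457, edgeR). *Fam19a2*, a secreted chemokine-like protein, rose by 0.50 ± 0.07 (SE; adjusted P = 0.0107, edgeR), from 35.9 to 40.4 CPM at low RIN to 48.1 to 62.6 CPM at high RIN.

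*Nwd2*, a protein with NACHT and WD repeat domains at chr5:63649102-63810546, was at 45.2, 52.9 and 61.4 CPM at high RIN and at 76.4, 80.6, 59.3 and 67.8 CPM in KO3, KO5, WT3 and WT4. Within each genotype the classes did not overlap, although WT3 lay below KO2, and the log2 fold change was -0.42 ± 0.05 (SE; adjusted P = 0.00799). *Otof*, the calcium sensor otoferlin of hair cell synapses, was at 13.4, 15.4 and 20.4 CPM against 25.3, 27.8, 22.7 and 19.5 CPM (log2 fold change -0.60 ± 0.08, SE; adjusted P = 0.00799). Only KO2 and WT4 crossed between the classes. *Syt17*, a synaptotagmin, fell by 0.41 and *Cpne4*, a calcium-dependent membrane-binding copine, by 0.32 on the log2 scale (adjusted P = 0.0204 and 0.0391, edgeR). *Lmo4*, a transcriptional regulator used in the patterning of cortical areas, and *L1cam*, an axonal adhesion molecule, fell by 0.22 and 0.24 with no overlap between classes.

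*Fras1*, a very large matrix protein that joins epithelia to the tissue beneath, was at 25.1, 28.1 and 28.5 CPM at high RIN and at 34.9, 38.1, 35.6 and 35.1 CPM at low RIN. The classes were wide apart compared with the spread inside either, and the log2 fold change was -0.39 ± 0.05 (SE; adjusted P = 0.00907, edgeR). *Col12a1*, a collagen found on the surface of fibrils, was at 17.6, 18.8 and 21.2 CPM against 25.6, 24.7, 27.8 and 24.8 CPM, also without overlap (log2 fold change -0.43 ± 0.07, SE; adjusted P = 0.0197). The coding regions of *Fras1* and *Col12a1* measure 12033 and 9198 bases, against a median of 1419 bases over tested genes. *Bmp3*, a ligand of the bone morphogenetic protein family, fell by 0.42, and *Adamts18*, a secreted metalloprotease of low abundance (1.99 CPM at high RIN and 3.68 CPM at low RIN, means of 6 and 4), fell by 0.89.

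*Tsc22d3*, *Arrdc2* and *Sgk1*, also higher at high RIN, are known to be induced by glucocorticoids, the steroid hormones released in stress and over the day. Bound glucocorticoid receptor enters the nucleus and binds short palindromic elements, and *Zbtb16* itself is a known target of it. *Tsc22d3*, which encodes the glucocorticoid-induced leucine zipper, was at 127, 145 and 156 CPM at high RIN and at 124, 98.9, 95.9 and 101 CPM in KO3, KO5, WT3 and WT4, without overlap (log2 fold change 0.45 ± 0.06, SE; adjusted P = 0.0107). *Arrdc2*, an arrestin-domain protein, was at 16.1, 19.0 and 23.9 CPM against 15.7, 11.2, 11.2 and 11.6 CPM, and KO3 lay apart from the other low RIN libraries (log2 fold change 0.64 ± 0.10, SE; adjusted P = 0.0177). *Sgk1*, a kinase that regulates ion channels, was at 95.5, 129 and 172 CPM against 130.4, 96.1, 68.4 and 67.4 CPM. Its classes overlapped across genotypes, whereas within each genotype every high RIN library lay above every low RIN library, and the log2 fold change was 0.54 ± 0.10 (SE; adjusted P = 0.0414, edgeR).

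A list of 21 glucocorticoid-induced genes was also written after the calls had been seen, and is no independent evidence. In this list 3 genes passed the test (0.192% of tested genes in that direction), 20 had a positive log2 fold change (50.6%), 16 had an unadjusted P under 0.05 (5.32%), and the median was 0.32. *Fkbp5*, the co-chaperone that damps the receptor, was at 54.3, 67.7 and 93.5 CPM at high RIN and at 65.2, 50.3, 44.6 and 46.2 CPM at low RIN (log2 fold change 0.47 ± 0.10, SE; adjusted P = 0.075, edgeR). *Zbtb16* lay just outside the threshold with a log2 fold change of 0.24 ± 0.05 (SE; adjusted P = 0.0535, edgeR), 49.1 to 52.9 CPM against 42.1 and 42.1 CPM in KO mice and 77.8 to 88.2 CPM against 70.8 and 73.8 CPM in WT mice. *Per1*, a clock gene that also answers to glucocorticoids, was the exception with a value of -0.09. A list of 16 clock genes had a median of 0.014 and no called member. By library, the median deviation of the glucocorticoid-induced list from the mean of all libraries was lowest in WT3 (-0.33, on log2(CPM + 1)). In that list KO3 (0.00056) lay next to the lowest high RIN library, WT1 (0.0046).

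Promoters of the listed glucocorticoid-induced genes were read because 3 members were called in the same direction. RefSeq promoter windows of GRCm38.p6, from 250 bases before to 50 bases after each start, were found for 19 of the 21 genes and searched on both strands for the receptor's full palindrome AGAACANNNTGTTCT and for its core GAACANNNTGT or the complement of that core, which the full palindrome contains. The full palindrome occurred in 3 of 32851 promoters (0.00913%), and *Sgk1* was the 1 listed gene among them. The core occurred in 319 of all promoters (0.971%) and in 3 of the 30 promoters of listed genes. By gene, it occurred in 86 of 10885 tested genes with a promoter (0.79%) and in 3 of the 19 listed genes, 1 of them called. A match gives letters and not a bound site. Listed genes were picked as glucocorticoid-induced, so their share of matches says nothing about RIN. The windows of 30 bases around the matches are printed 5′ to 3′ on the plus strand with the matched letters in capitals.
Sgk1, chr10:21993694-21993723, match 189 bases before the start: tgcggaaAGAACAGAATGTTCTcggagatt
Mt1, chr8:94178988-94179017, match 92 bases before the start: actatagggACATGATGTTCcacacgtcac
Map3k6, chr4:133240630-133240659, match 179 bases before the start: aataggggcACAGGCTGTTCcggaagtgga

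The genes next to these sequences differed in their call. *Sgk1* passed the test, whereas *Mt1*, a metallothionein that binds zinc and copper, had a log2 fold change of 0.27 ± 0.07 (SE; adjusted P = 0.106, edgeR) and the kinase gene *Map3k6* one of 0.40 ± 0.12 (SE; adjusted P = 0.203, edgeR). No window of *Tsc22d3* or *Arrdc2* held the core, and *Zbtb16* had no promoter entry in the table used.

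*Slc2a1*, the GLUT1 glucose transporter of the blood-brain barrier, was at 158, 172 and 194 CPM at high RIN and at 137, 150.0, 130 and 123 CPM in KO3, KO5, WT3 and WT4. No low RIN library reached the high RIN range, and the log2 fold change was 0.37 ± 0.05 (SE; adjusted P = 0.00906). *Kdr*, the main receptor of vascular endothelial growth factor, was at 8.05, 9.65 and 11.9 CPM against 13.4, 23.1, 14.2 and 13.8 CPM, with KO5 far above the rest (log2 fold change -0.73 ± 0.13, SE; adjusted P = 0.0391). It was called in 2 of the 10 fits that left out 1 library, with values from -0.85 to -0.53. The 10 endothelial markers fixed as a list had a median of 0.0059 and no call. *Acsl3*, which activates long-chain fatty acids, rose by 0.18, *Agpat9*, an acyltransferase of triglyceride synthesis, by 0.72, and *Aldh1a1*, which makes retinoic acid, by 0.54 on the log2 scale. *Acsl3* and *Agpat9* were each called in 1 of the 10 fits that left out 1 library. *Slc6a7*, the proline transporter of brain synapses, fell by 0.29 (adjusted P = 0.0414, edgeR).

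All 44 called genes had the same sign in KO and in WT mice. A test of whether the RIN effect differed by genotype called 0 of 14620 genes (0%; edgeR interaction term), with 523 (3.58%) at an unadjusted P under 0.05, and the lowest adjusted P among the 44 was 0.995. The interaction test called 89 genes without KO3 and 4 without KO5, each with 1 low RIN KO library left, which was assumed to vary like the other groups. Agreement in sign among genes chosen over both genotypes is not independent. WT mice alone therefore chose genes that were then read in KO mice, which share no library with them. In WT mice 45 genes were called (0.308%), 22 higher and 23 lower at high RIN. Of these 45, 42 (93.3%) had the same sign in KO mice alone, against 57.1% of all tested genes, and 23 also had an unadjusted P under 0.05 there. KO mice alone gave 0 calls (0%) by edgeR. In them 796 of 14620 genes had an unadjusted P under 0.05, against 1383 in WT mice alone. By this reading, the direction of the WT calls was found again in most of the KO values, while no single gene passed in KO mice. Genes can vary together across libraries, so the 45 are not independent observations and the share of equal signs carries no test. The low RIN class of KO mice was KO3 and KO5 alone.

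**Figure D2:**
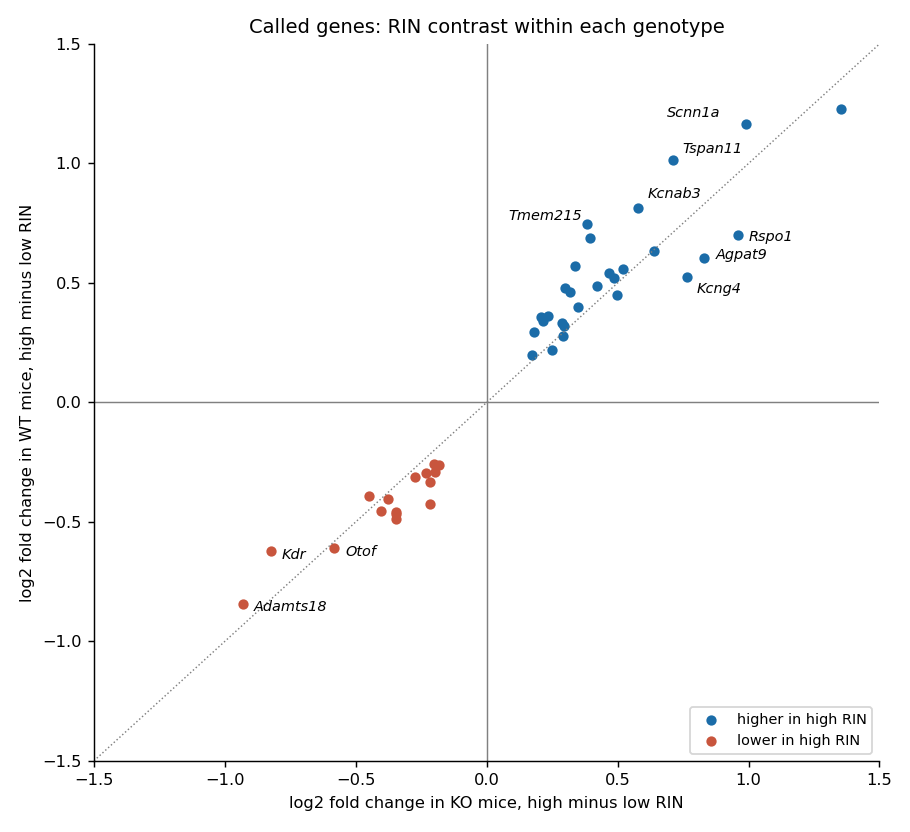
Log2 fold change, high minus low RIN, of the 44 called genes in KO mice (horizontal axis) and WT mice (vertical axis), from the fit with an interaction term. The dotted line marks equal change. All points lie at the lower left or the upper right, and *Tmem215* (0.38 in KO mice, 0.75 in WT mice) and *Rspo1* (0.96 and 0.70) are examples on either side of the line.

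The number of calls rested on a few libraries. Without WT3, 1 gene was called (*Nwd2*), and without WT4 or WT2 the count was 10 each. Without WT1, WT5 or KO4 it was 22, 20 and 24, and without KO2 it was 72. Without both low RIN WT libraries it was 0 by edgeR, with 997 of 14620 genes at an unadjusted P under 0.05. Without both low RIN KO libraries it was 7. Without KO3, the library whose Y-linked counts went against its label, the count rose to 73 with 40 of the 44 among them, and without KO5 it was 48 with 27 of the 44. *Nwd2* was called in all 10 fits that left out 1 library. *Fras1*, *Otof*, *Kcnab3*, *Scnn1a*, *Slc2a1*, *Tsc22d3* and *Fam19a2* were called in 9 of the 10, *Syt2* in 8, *Sgk1*, *Pvalb* and *Vamp1* in 2, *Whrn*, *Adamts18* and *Zfp651* in 1, and *Camk2n2*, an inhibitor of CaM kinase, in 0. The signs of all 44 were kept in every one of these fits. With a score of erythrocyte genes as covariate, added because KO5 stood apart in them, 18 genes were called, 15 of them among the 44.

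**Figure D3:**
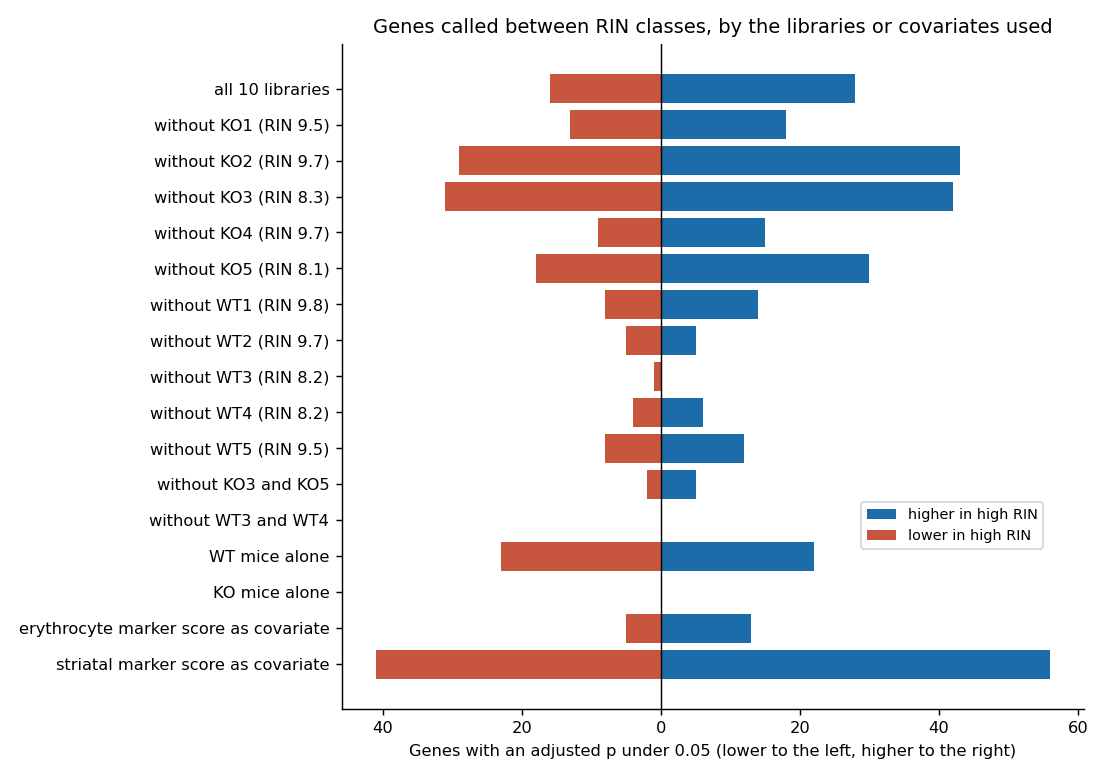
Number of genes with an adjusted P under 0.05 in the RIN contrast, with lower genes drawn to the left and higher genes to the right, for all libraries, for fits without named libraries and for added covariates. The count of 44 fell to 1 without WT3 and rose to 73 without KO3.

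Transcript classes were then described by their counts and medians. Cytosolic ribosomal proteins are made from short, abundant and stable transcripts. Of 82 tested, 77 had a positive log2 fold change, against 50.6% of all tested genes, but the median was 0.052, 10 had an unadjusted P under 0.05 and none was called. By library, the median deviation of the class ran from -0.014 to 0.068 at high RIN and from -0.078 to -0.0041 at low RIN, and of the high RIN libraries only KO1 lay within the low RIN range. *Rpl4*, its most abundant member, was at 377, 384 and 396 CPM at high RIN and at 361, 356, 373 and 386 CPM at low RIN. Nuclear genes of the respiratory chain and ATP synthase had 69 of 82 values above 0 and a median of 0.031, which came from WT mice (0.074) more than from KO mice (0.0048). Mitochondrial ribosomal proteins (median 0.025, 49 of 77 above 0), snRNP and LSm proteins of the spliceosome (0.034, 23 of 34), translation initiation factors (0.023, 35 of 53) and proteasome subunits (0.0072, 21 of 37) stayed near 0, and none of their genes was called.

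The next classes, apart from the genes named Zfp, had negative medians. The 57 clustered protocadherins, adhesion molecules that give neurons their individual identity, had a median of -0.026, with 6 genes lower and 1 higher at an unadjusted P under 0.05 (5.24% and 5.32% of tested genes). Collagens and laminins had a median of -0.041 over 54 genes, with *Col12a1* as the 1 call, and KO mice (-0.13) and WT mice (0.018) differed in sign. Pore-forming subunits of voltage-gated ion channels had a median of -0.028 over 43 genes, with 10 lower and 6 higher at an unadjusted P under 0.05. Immediate early genes, whose short-lived transcripts answer to neuronal activity within minutes, had the lowest median of the classes, -0.13, with 7 of 35 lower and none higher at an unadjusted P under 0.05 and no call. Their median deviation spread over -0.37 to 0.096 at high RIN, where WT5 lay far below the rest, and over -0.21 to 0.30 at low RIN, so that the classes overlapped. The solute carriers had a median of -0.0087 over 253 genes, with 22 lower and 8 higher at an unadjusted P under 0.05. Among them *Slc2a1* was called higher and *Slc6a7* lower (0.192% and 0.109% of tested genes). The 342 genes named Zfp had a median just above 0, 0.0059, with *Zfp651* as the 1 call, higher at high RIN.

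No member of the following classes was called. Heat shock and chaperone genes had a median of 0.026 over 24 genes, with 19 above 0, but of 0.11 in KO mice and -0.023 in WT mice, and without KO5 the median was -0.031. *Hspa8*, the constitutive chaperone, was at 1562 ± 41.0 CPM (SD, n = 6) and 1518 ± 157 CPM (SD, n = 4). Genes of the RNA decay machinery had a median of -0.011 over 45 genes. Interferon-stimulated genes had 0.082 over 19 genes, from -0.039 in KO mice and 0.16 in WT mice. Replication-type histone genes, whose transcripts mostly lack a poly(A) tail, were thinly covered, with 15 of 67 abundant enough to test and a median of 0.025. The 13 mitochondrially encoded genes were listed at 0 in every library and are not analysed here.

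**Figure D4:**
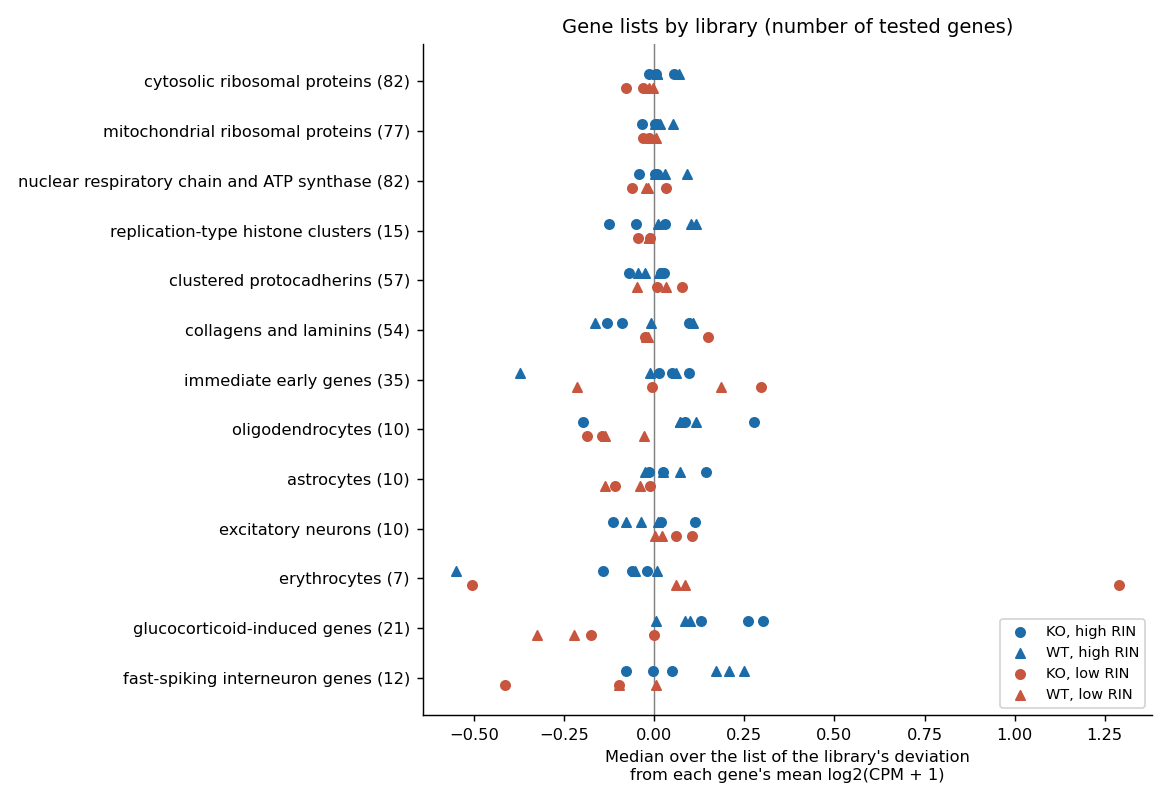
For 13 gene lists, the median over tested members (their number in brackets) of each library's deviation from the gene's mean log2(CPM + 1). Blue is high RIN and red low RIN, circles are KO and triangles WT mice, and the last pair of lists was written after the calls were seen. KO5 lies alone at 1.29 in erythrocyte genes, and the classes overlap in most lists.

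Transcript architecture was read as 1 value per library, the Spearman correlation across genes between that library's deviation from the mean and a feature of the gene. For coding length this value was -0.044 ± 0.085 (SD, n = 6) at high RIN and 0.079 ± 0.071 (SD, n = 4) at low RIN, where a negative value means relatively fewer counts on long coding transcripts. The difference within genotype was -0.12, with an exact permutation P of 0.05 and an adjusted P of 0.225 over the 9 measures. For the number of exons the difference was -0.086 (exact permutation P = 0.02, adjusted P = 0.18), where 0.01 is the smallest P the design allows. Exonic length (difference -0.059, exact permutation P = 0.24), 3′ UTR length (0.032, P = 0.64), 5′ UTR length (-0.012, P = 0.71), gene span (-0.025, P = 0.53) and GC content (-0.074, P = 0.57) gave larger values of P in the same test. Before adjustment, only the number of exons had an exact permutation P under 0.05. Leaving out 1 library turned the sign of 3′ UTR length (-0.030 without KO5, 0.098 without KO3), gene span (-0.069 without KO5, 0.019 without KO3) and 5′ UTR length (-0.044 without KO5, 0.022 without KO3), and moved GC content from -0.15 without WT1 to -0.00046 without WT2. In GC content WT2 had the most extreme value of the 10 libraries, -0.38. None of the 9 measures passed adjustment.

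The bins of genes gave the sizes behind these values. When tested genes were put in 10 bins by coding length, the median log2 fold change went down in every step from 0.027 in the shortest bin (median 405 bases) to -0.037 in the longest (median 4822 bases). In the longest bin 35.1% of 1406 genes were above 0. It held 7 of the 15 lower genes and 2 of the 27 higher genes that have a coding length. Both genotypes had the gradient in these medians, from 0.0060 to -0.018 in KO mice and from 0.044 to -0.051 in WT mice. The low RIN KO libraries were unlike each other, with a correlation with coding length of 0.16 in KO3 and -0.0074 in KO5. The high RIN KO libraries lay at -0.036 to 0.058. Without KO3 the difference within genotype was -0.081. Exonic length, which counts the UTRs too, gave 0.018 to -0.010 in all libraries but ran opposite ways, from -0.0060 to 0.0096 in KO mice and from 0.041 to -0.025 in WT mice. The bins of 3′ UTR length went from -0.011 to 0.015 in all libraries. They too ran opposite ways, from -0.029 to 0.029 in KO mice and from 0.0075 to -0.0036 in WT mice. The bins of GC content went from 0.037 in the most AT-rich bin to -0.017 in the most GC-rich. Genes are not independent replicates, and these medians carry no test.

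**Figure D5:**
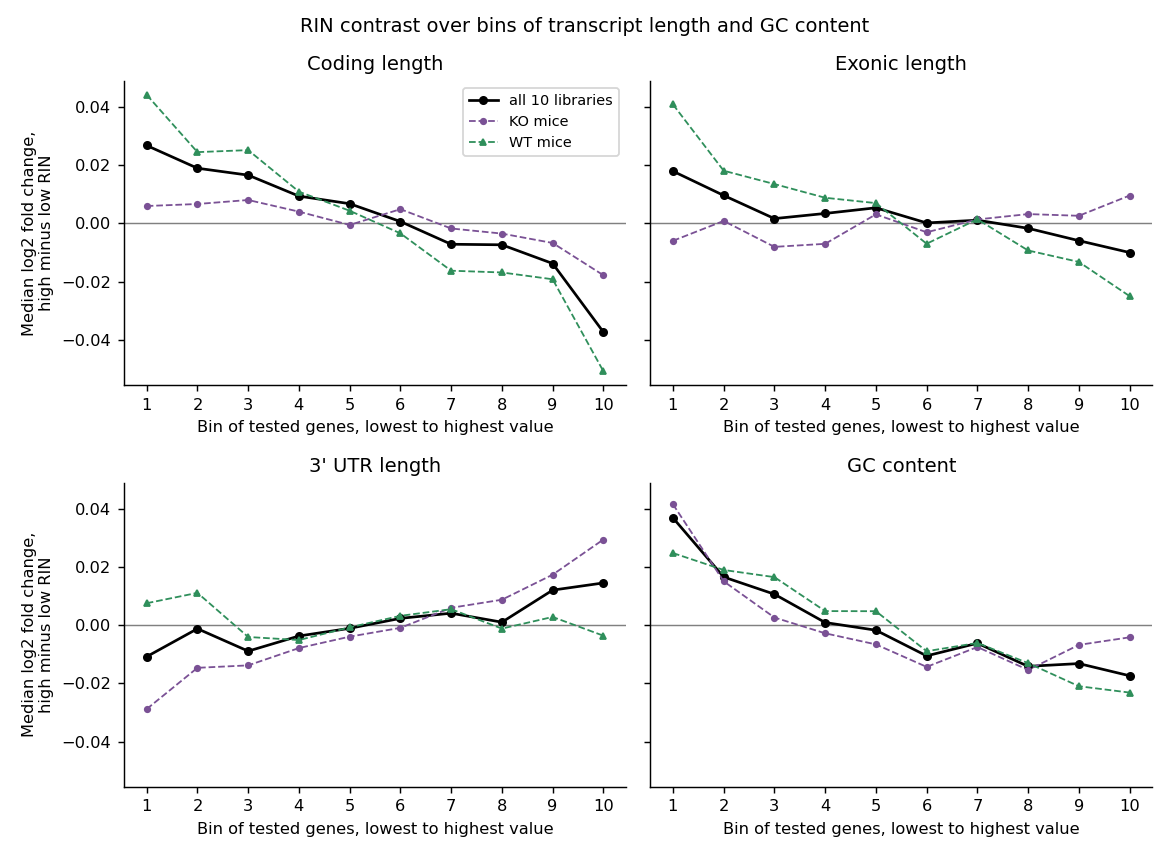
Median log2 fold change, high minus low RIN, in 10 equal bins of tested genes ordered by coding length, exonic length, 3′ UTR length and GC content, in all libraries (black), KO mice (purple) and WT mice (green). Coding length falls from 0.027 to -0.037 over the bins, while exonic length and 3′ UTR length each run opposite ways in KO and WT mice.

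The called genes themselves mirrored these bins only in part. Of the genes with an annotation, the 15 lower at high RIN had a median coding length of 2094 bases and 16 exons, and the 27 higher genes 1317 bases and 9 exons, against 1419 bases and 9 exons over tested genes. Median 3′ UTR length was 1596 bases for the lower and 1340 bases for the higher genes, and GC content 50.5% and 50.7%, with 50.4% over tested genes. Single genes went against the trend, for example *Lmo4*, lower at high RIN with a coding region of 498 bases, and *Cadps2*, a regulator of dense-core vesicle release, higher with 3915 bases.

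Markers of cell types were set beside these results. Oligodendrocyte markers, the myelin genes of the brain, were all above 0, with a median of 0.21 over 10 genes and 8 higher at an unadjusted P under 0.05 (5.32% of all tested genes), but none was called. *Mbp*, myelin basic protein, was at 2611, 3209 and 3852 CPM at high RIN and at 2713, 2507, 2656 and 2928 CPM at low RIN, where only KO1 fell among the low RIN libraries (log2 fold change 0.26 ± 0.08, SE; adjusted P = 0.214, edgeR). The summed level of the list was 6526 to 9391 CPM at high RIN and 6492 to 7320 CPM at low RIN. Astrocyte markers had a median of 0.13 with 9 of 10 above 0, and excitatory neuron markers -0.057 with 2 of 10 above 0, and neither list had a call. Microglia (-0.026), mural cells (0.047), meningeal fibroblasts (-0.078), oligodendrocyte precursors (-0.025) and ependymal cells (0.0079) had no call either, nor had choroid plexus markers (0.36), of which 4 of 7 were above 0.

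Markers of striatal medium spiny neurons, which lie beneath the PFC, varied among libraries more than by class. Their median deviation ran from -0.42 to 0.88 at high RIN and from -0.49 to 0.52 at low RIN, and their median RIN contrast was 0.76 in WT mice but -0.19 in KO mice. With their score as covariate 97 genes were called, 44 of the original 44 among them. Erythrocyte markers had a median of -0.57 (-0.94 in KO mice and -0.18 in WT mice), with 6 of 7 below 0 and 4 lower at an unadjusted P under 0.05 (5.24% of all tested genes). Their median deviation was 1.29 in KO5 against -0.51, 0.086 and 0.061 in KO3, WT3 and WT4, and without KO5 the median contrast was -0.047. Their summed level was 321 to 340 CPM at high RIN and 336 to 494 CPM at low RIN. The part of these markers in the calls was not tested beyond the fits with their scores.

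RIN class also bore on the comparison of genotypes. With RIN class in the model, 39 genes (0.267%) were called between KO and WT mice, 28 higher and 11 lower in KO mice. Without it, 24 genes (0.164%) were called, and all 24 were among the 39. *Zbtb16* was lower in KO mice by a log2 fold change of -0.74, with an adjusted P of 2.11e-06 with RIN class in the model and 0.000993 without (edgeR). *Sgk1* was called in both contrasts. It was higher in KO mice by 0.56 on the log2 scale, with an adjusted P of 0.027 with RIN class in the model and 0.408 without (edgeR).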

How the data were processed

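One stranded poly(A) library per mouse was sequenced as 101 base paired ends. The authors aligned reads to mm10 with STAR (2.7.1a), removed multi-mapped reads and counted unique reads on exons of protein-coding Gencode M21 genes with HTSeq (0.9.1). The deposited values are these raw counts, and the strand setting is not given in the sources used here, so overlapping genes are uncertain. Groups came from the RIN and genotype labels.

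Counts were tested with edgeR (4.0.16, R 4.3.3): quasi-likelihood, TMM, its filter on low counts, genotype and RIN class as terms, Benjamini-Hochberg adjustment over 14620 genes and a threshold of 0.05. Fold changes are high minus low RIN. Library measures used exact two-sided permutation within genotype (100 arrangements) on log2(CPM + 1). A count of 3 corresponds to 0.0586 to 0.0993 CPM, which covers counting error only. No pair of libraries lay within sampling noise (chi-square per degree of freedom at least 5.62). Positions and lengths came from Gencode M21 (GRCm38), with 90% of 22000 names matched.

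Named genes were, in each direction, the 10 largest changes without overlap above 1 CPM, the 5 of smallest P above 50 CPM, the most abundant and the called members of each list, and label checks. Called genes outside this rule and members of the glucocorticoid, fast-spiking and clock lists were chosen after their values were seen. Members and lists were chosen with earlier results of these data known. 2 called genes with clone names only are counted but not named. Some genes that are counted are not reported here by name.

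The scripts were tested on simulated counts. Alternatives used DESeq2 (1.42.0), sva (3.50.0), other scalings, filters, covariates and subsets of libraries. Python 3.11.15, pandas 2.3.3, scipy 1.17.1 and matplotlib 3.10.9 handled tables and figures.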

Additional observations from a re-analysis of the deposited data

Results flagged for a closer look

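The groups tested here came from the same libraries and included called genes, so their count cannot be weighed against chance. In 15 of 174 groups 1 library lay far from the rest of its class, where independent groups give about 1 in 20 by chance. At high RIN these were total counts of WT2 (47343536), the median deviation on log2(CPM + 1) of immediate early genes in WT5 (-0.3726), choroid plexus markers in KO2 (0.2562) and erythrocyte markers in WT2 (-0.5505), and *Zfp651*, a zinc finger gene, in KO1 (152.2 CPM). At low RIN, KO5 stood apart in genes with a count (16457), in collagens and laminins (0.1501) and in *Kdr* (23.1 CPM). KO3 did so in histone genes (-0.04497), meningeal fibroblast markers (0.2056), *Arrdc2* (15.68 CPM), *Ddit4l*, an inhibitor of mTOR signalling (43.11 CPM), and *Zfp651* (119.8 CPM against 117.2 to 117.4 CPM). WT4 did so in mural cell markers (0.03161), and WT3 in *Tmem215* (12.96 CPM).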

How the results depend on the processing

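The 44 calls between RIN classes (28 higher, 16 lower) kept their sign in every alternative fit, but the count moved. It was 260 (152 and 108) with DESeq2, 282 (159 and 123) with 2 surrogate variables, 121 (75 and 46) with no filter on low counts, 97 (56 and 41) with a striatal score and 18 (13 and 5) with an erythrocyte score as covariate, 9 (6 and 3) without genotype, 7 (5 and 2) without KO3 and KO5, 0 without WT3 and WT4 or in KO mice alone, and 5 (2 and 3) at an adjusted P under 0.01. RLE scaling gave 44, library totals 59, RIN as a number 56, the 1 CPM filter 48 and WT mice alone 45. The erythrocyte score and the fit without WT3 and WT4 were chosen after seeing the data. Leaving out 1 library at a time gave 1 to 73 calls (0 to 43 higher, 1 to 31 lower), 16 to 74 genotype calls and 0 to 89 genes whose RIN effect differed by genotype, where the 89 came without KO3. Genotype calls were 39, 24 without the RIN term, 9 without KO3 and KO5, and 1 without WT3 and WT4. The causes were not tested.

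The coding length difference of -0.123 had an exact permutation P of 0.0429 over all 210 class assignments that ignore genotype. Leaving out 1 library moved it over -0.167 to -0.0808, exon number over -0.112 to -0.0593 and exonic length over -0.114 to -0.00196. Class medians moved to 0.0749 (respiratory chain, in WT mice alone and without KO3 and KO5), 0.00118, 0.00671 and -0.0036 (initiation factors, in KO mice alone, with the erythrocyte score and without WT3 and WT4), -0.0794 and -0.0841 (protocadherins) and -0.0367 and -0.0418 (interferon-stimulated genes, each in KO mice alone and without WT3 and WT4). Without 1 library, the median of initiation factors ran from 0.00581 to 0.0319, of solute carriers from -0.0284 to -0.00116 and of the RNA decay machinery from -0.0193 to 0.0186. Highest minus lowest bin was, for exonic length, 0.0147 in KO mice, -0.0657 in WT mice, -0.0659 without KO3 and KO5 and 0.0155 without WT3 and WT4, for coding length -0.0237 in KO mice, for 3′ UTR length -0.0175 with the erythrocyte score, and for mean CPM 0.171 in KO mice, -0.0427 in WT mice, -0.0431 with the erythrocyte score, -0.0408 without KO3 and KO5 and 0.172 without WT3 and WT4. Without 1 library these ran from -0.0676 to -0.0149, -0.0142 to 0.0446 (3′ UTR) and -0.0513 to 0.0827 (mean CPM). No paired analysis was possible because replicate numbers join different mice. With 4 low RIN libraries, a gene without a call is not shown to be equal between classes.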
